A study of Mus musculus with 10 samples.

Results

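Genes of the transient receptor potential (TRP) channel family were followed in the hippocampus of female P301S mice given dihydrotestosterone (DHT). The 9 genes described were chosen by name, Trpm2, Trpm3, Trpm4, Trpm7, Trpv2, Trpv4, Trpc1, Trpc4 and Trpc5, with earlier results of these same mice known, and they were found by their gene identifiers among 56884 gene rows, of which 17622 had enough counts to be compared. All 9 were among those compared. They were selected on the measured difference between void and DHT, and on the likeness of Trpm3 and Trpv4 to the choroid plexus gene Ttr, and for that reason the fold changes of these 9 genes are given as a description, without p-values.

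All mice were ovary-intact females of the P301S (PS19) line, labelled hTau, which carries a human Tau transgene with the P301S mutation under the mouse prion protein promoter, so that both groups have it, and no group without it was analysed here. A subcutaneous silicone tube was implanted from 6 months of age and replaced during 12 weeks of treatment. In 5 mice it held 10 mm of DHT, an androgen that aromatase does not convert to estrogen, and in the other 5 it was empty (void), with hippocampi collected at 9 to 9.5 months and 1 mRNA library made per mouse. Mice are named by group and label number, void 4, 5, 9, 10 and 11 and DHT 1, 2, 3, 5 and 6.

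TRP channels are cation channels of the plasma membrane and of organelles, and most of them let calcium in when opened by heat, stretch, lipids, oxidative products or receptors that signal through phospholipase C. In the brain, TRPC channels are best known from neurons, TRPM2 from neurons and microglia that meet oxidative stress, and TRPM3 from its activation by heat and by the neurosteroid pregnenolone sulfate. Trpm3 and Trpv4 are also expressed by the choroid plexus epithelium, the tissue that secretes cerebrospinal fluid and makes transthyretin (Ttr), and TRPV4 sits in its membranes as a sensor of osmolarity.

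Total counts per mouse ran from 27188854 to 47113661, and mitochondrial genes took 1.53% to 2.39% of them. Levels are given as CPM, counts scaled to a common library size after TMM normalization. The library numbers of all void mice came before those of all DHT mice, so that the order of libraries cannot be told apart from treatment. Neuronal and hippocampal subfield genes were present in both groups. Among neuron genes, Map2 averaged 2010 ± 126 CPM (SD, n = 5) in void mice and 1770 ± 139 (SD, n = 5) in DHT mice. Prox1 of dentate granule cells averaged 166 ± 34.4 CPM (SD, n = 5) and 148 ± 16.3 (SD, n = 5). The mice differed widely in the level of the choroid plexus gene Ttr. Ttr was 62.5, 65.1, 329, 670 and 1340 CPM in void 11, 5, 10, 4 and 9, and 1290, 1340, 1570, 1670 and 1730 CPM in DHT 3, 2, 5, 6 and 1. Void mice thus spanned a 21.4-fold range while the DHT mice spanned a 1.34-fold range, and void 9 lay among the DHT mice. Levels in bulk hippocampus do not tell fewer or more cells of a type from less or more RNA per cell.

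The sequences in front of Trpm3 and Trpv4 are shown because these genes had the largest differences of the 9. RefSeq (GRCm38.p6) gave promoter windows of 300 bases for 8 of the 9 genes, 11 windows in all, with 2 for Trpm3 and 1 for Trpv4. Capitals mark matches to AGGTCA, the half-site of many nuclear receptors, on either strand (TGACCT on the other). AGAACA, a half-site of the androgen receptor (TGTTCT on the other strand), and TAATCC, the core letters bound by OTX2 (GGATTA on the other strand), were searched in the same way and had no match in these 3 windows. The first Trpm3 window is chr19:22138796-22139095, the second is chr19:22447958-22448257, both on the + strand, and the Trpv4 window is chr5:114658372-114658671 on the - strand.
Trpm3 first start site: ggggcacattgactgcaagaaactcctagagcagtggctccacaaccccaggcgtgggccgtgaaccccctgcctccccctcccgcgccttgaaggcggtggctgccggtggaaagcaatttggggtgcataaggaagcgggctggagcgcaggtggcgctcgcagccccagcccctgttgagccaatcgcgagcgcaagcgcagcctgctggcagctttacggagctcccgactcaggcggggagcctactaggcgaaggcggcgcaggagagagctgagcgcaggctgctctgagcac
Trpm3 second start site: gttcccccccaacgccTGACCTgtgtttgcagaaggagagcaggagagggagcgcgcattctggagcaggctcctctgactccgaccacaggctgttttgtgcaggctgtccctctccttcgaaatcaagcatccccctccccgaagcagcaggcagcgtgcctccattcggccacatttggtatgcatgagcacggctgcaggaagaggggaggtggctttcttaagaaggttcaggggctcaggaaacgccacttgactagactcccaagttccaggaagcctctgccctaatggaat
Trpv4 start site: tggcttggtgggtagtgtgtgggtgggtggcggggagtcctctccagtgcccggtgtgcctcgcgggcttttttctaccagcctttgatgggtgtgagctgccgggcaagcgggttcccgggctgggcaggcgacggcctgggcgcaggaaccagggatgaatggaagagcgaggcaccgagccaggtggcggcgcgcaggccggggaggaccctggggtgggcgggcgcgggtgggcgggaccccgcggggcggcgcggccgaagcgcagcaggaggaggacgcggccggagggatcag
The second Trpm3 window held 1 match to AGGTCA, while 16.3% of all 32851 windows of the same length held at least 1. AGAACA was found in 19% of all windows and TAATCC in 7.06%. Among the other 6 genes with a window, Trpv2 had 1 match, to AGAACA, in 1 of its 3 windows.

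An intron of Trpm3 also holds Mir204, on the same strand, a microRNA gene known to be transcribed with its host. Mature mmu-miR-204-5p lies at chr19:22750610-22750631 (GRCm38.p6, + strand), inside the gene and touching none of its annotated exons, and is shown with its seed, bases 2 to 8, in capitals.
mmu-miR-204-5p: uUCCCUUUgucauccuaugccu
The libraries were made from polyadenylated RNA and counted only 9 reads for the Mir204 row over all 10 mice, at most 2 in any mouse, so its level was not measurable at this depth.

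Trpm3 (ENSMUSG00000052387) was the most abundant TRP gene per length of exon and was higher in every DHT mouse. It was at 178, 181, 196, 231 and 271 CPM in void 11, 5, 10, 4 and 9, and at 395, 407, 435, 469 and 602 CPM in DHT 5, 6, 2, 3 and 1. No void mouse reached the lowest DHT mouse, and within either group the highest mouse was 1.52 times the lowest. The means were 211 ± 39.5 CPM (SD, n = 5) and 462 ± 83.7 (SD, n = 5), a log2 fold change of 1.13 (standard error 0.14), or 2.18-fold, which placed Trpm3 at rank 425 by upward fold change among the 17622 genes. Without DHT 1, the mouse with the highest value, the log2 fold change was 0.98, under the limit of 1 used for calls. Annotated antisense genes overlap 1.13% and 1.44% of the bases of its exons, and the strand used in counting is not given in the sources used here.

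Trpm2 (ENSMUSG00000009292), the channel opened by ADP-ribose, was at 33.6 to 38 CPM with void and 27.2 to 36.5 with DHT. The groups overlapped only through DHT 6, at 36.5 CPM. DHT 1, 3, 2 and 5, at 27.2, 30.1, 32.9 and 33.2 CPM, lay below every void mouse. The log2 fold change was -0.18 (standard error 0.08, 95% interval -0.33 to -0.02), and Trpm2 was not called. Trpm4 (ENSMUSG00000038260), a channel that calcium opens but that passes monovalent ions, was at 6.38 to 9.03 CPM with void and 6.91 to 10.4 with DHT, with a log2 fold change of 0.05 (standard error 0.14). Trpm7 (ENSMUSG00000027365), a magnesium-permeable channel fused to a kinase, was at 66.5 to 81.1 CPM with void. With DHT it was split, at 62 and 66.3 CPM in DHT 6 and 5 and at 82.4, 89.6 and 89.8 CPM in DHT 2, 1 and 3, so that 2 DHT mice lay below every void mouse and 3 above. Its log2 fold change was 0.11 (standard error 0.11).

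Trpv4 (ENSMUSG00000014158) was a low-abundance gene in most void mice and about as high in 1 of them as in the DHT mice. It was at 1.26, 1.31, 3.25, 4.95 and 13.6 CPM in void 11, 5, 10, 4 and 9, and at 14.2, 15.3, 15.4, 21.7 and 21.7 CPM in DHT 2, 5, 3, 1 and 6. The groups did not overlap, but only by the gap between void 9 and DHT 2, and the void mice spanned a 10.8-fold range against 1.53-fold for DHT. The means were 4.87 ± 5.11 CPM (SD, n = 5) and 17.7 ± 3.72 (SD, n = 5). The log2 fold change of 1.85 (standard error 0.52), or 3.62-fold, exceeded that of Trpm3, with a standard error that was also larger, and Trpv4 was not called. Without void 9, the void mouse with the highest value, its log2 fold change was 2.69 (standard error 0.37).

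Trpv2 (ENSMUSG00000018507), a channel found in neurons and in macrophage-like cells, ranged from 11.6 to 14 CPM with void and from 11.3 to 14.1 with DHT. The ranges nearly coincided, with a log2 fold change of -0.04 (standard error 0.09).

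The 3 TRPC genes, neuronal channels that open downstream of receptors coupled to Gq, overlapped between groups. Trpc1 (ENSMUSG00000032839), which joins other TRPC subunits in mixed channels, was at 60.2 to 66.1 CPM with void and 56.5 to 63 with DHT, a log2 fold change of -0.08 (standard error 0.05). Trpc4 (ENSMUSG00000027748) was at 48.1 to 75.6 CPM with void and 49.6 to 76.7 with DHT, a log2 fold change of 0.02 (standard error 0.13), and Trpc5 (ENSMUSG00000041710), its closest relative, at 28.8 to 42.7 and 31.3 to 38.7, a log2 fold change of -0.07 (standard error 0.10). The 95% intervals of the log2 fold change were -0.18 to 0.03 for Trpc1, -0.23 to 0.27 for Trpc4 and -0.26 to 0.12 for Trpc5.

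**Figure D1:**
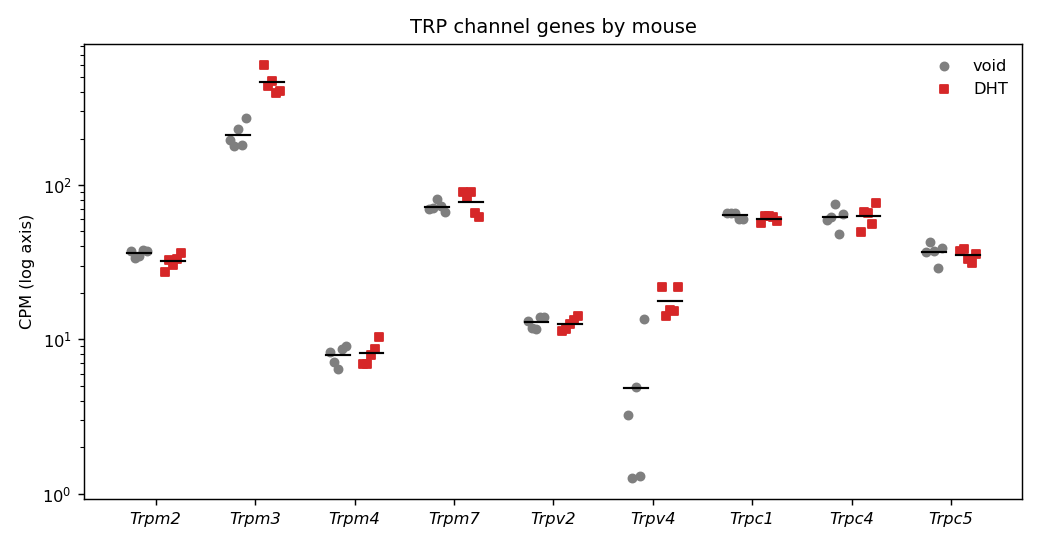
CPM of the 9 TRP channel genes in each mouse, on a log axis, with void mice as grey circles, DHT mice as red squares and group means as black lines. The groups are apart for Trpm3 and, by the gap between 13.6 and 14.2 CPM, for Trpv4, and they overlap for the other 7 genes.

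Of the 9 genes, 1 (Trpm3) passed the call of an adjusted p under 0.05 with a log2 fold change above 1, where 2.17% of all genes compared did so (quasi-likelihood fit of edgeR, p adjusted by Benjamini-Hochberg), and 0 passed it as lower, where 0.0227% did. At an adjusted p under 0.05 alone the counts were again 1 higher and 0 lower, against 5.22% and 0.261% of all genes. Every DHT mouse was above every void mouse for 2 of the 9, Trpm3 and Trpv4, against 5.39% of all genes, and below for 0, against 0.88%. The contrast was used in choosing the genes, so nothing is read from these shares. The median log2 fold change of the 9 was 0.02, next to 0.01 for all genes compared, with 5 of 9 above 0.

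Across the whole family, 28 genes were listed and 20 were compared, 9 of them the genes above. Of the other 11, 0 were higher and 1 was lower at an adjusted p under 0.05 in the edgeR fit (0 and 1 at an unadjusted p under 0.05), where 5.22% of all genes were higher and 0.261% lower, and their median log2 fold change was -0.05, with a range of -0.58 to 0.10. The lower gene was Trpc6 (ENSMUSG00000031997), a channel opened by diacylglycerol. It was at 19.9, 20.1, 22.4, 23.5 and 24.5 CPM in void 9, 10, 5, 4 and 11, and at 15.8, 16.1, 16.2, 17.5 and 19.6 CPM in DHT 1, 3, 6, 5 and 2. The groups were separated by the small gap between DHT 2 and void 9. Its log2 fold change was -0.37 (standard error 0.09, with an adjusted p of 0.0256 by the quasi-likelihood fit of edgeR). The call was lost without any 1 of 6 mice, void 4, 5 or 11 or DHT 1, 3 or 6, with adjusted p values up to 0.0754, while the log2 fold change stayed between -0.43 and -0.35.

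**Figure D2:**
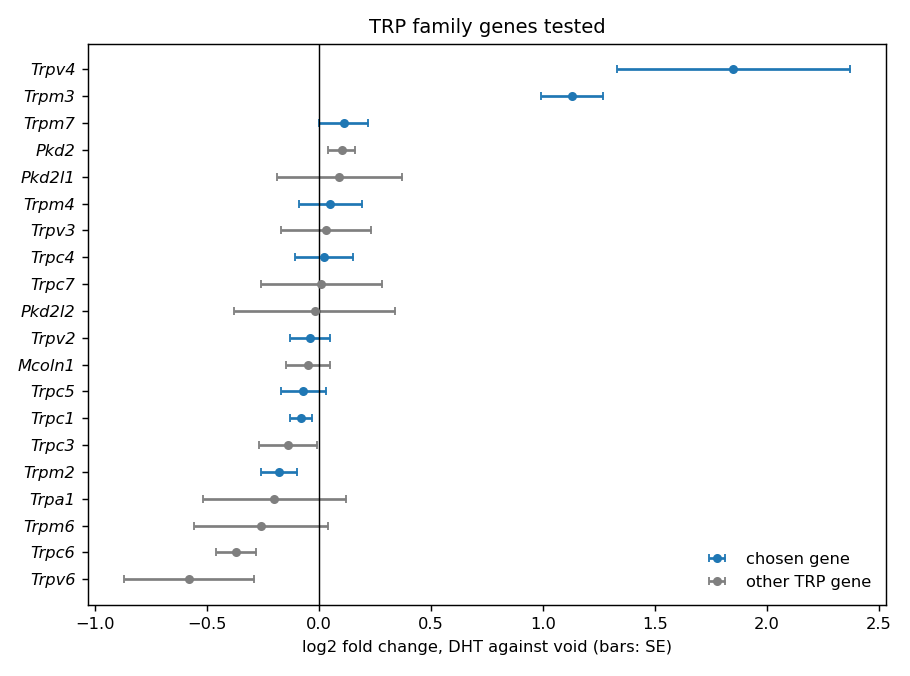
Log2 fold change of DHT against void (horizontal axis, bars show the standard error) for the 20 TRP family genes compared, the 9 chosen genes in blue and the other 11 in grey. Trpv4 at 1.85 and Trpm3 at 1.13 lie to the right of all others, which run from -0.58 to 0.11.

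Another 8 family genes had too few counts to be compared, and Trpc2 and Trpv5 had 0 counts in every mouse. Mcoln3, a lysosomal TRP channel, was singled out after its values were seen. It had 0, 0, 1, 2 and 2 counts in void 10, 11, 4, 5 and 9 and 6, 10, 39, 10 and 5 counts in DHT 1, 2, 3, 5 and 6, and DHT 3 alone gave 39 of its 75 reads. No fold is given for it, since it was picked for this pattern.

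Per kilobase of annotated exon, which allows levels to be set between genes, Trpm3 was highest in both groups, at 8.65 ± 1.61 CPM per kb (SD, n = 5) in void mice and 18.9 ± 3.42 (SD, n = 5) in DHT mice. In void mice Trpc1, Trpc4, Trpc5 and Trpm7 followed at 7.92, 7.73, 7.37 and 6.39 CPM per kb. The ranges of Trpm3 (7.28 to 11.1), Trpc1, Trpc4 and Trpc5 overlapped one another, so the order of these neighbours lay within the spread, while Trpm7 (5.88 to 7.17) overlapped Trpc4 and Trpc5 but not Trpm3 or Trpc1. With DHT the range of Trpm3, 16.2 to 24.6 CPM per kb, lay above those of all other family genes, the highest of which was 9.55 for Trpc4 in a single mouse. Trpv4 ranked 12 of 20 with void, at 1.2 CPM per kb, and 8 with DHT, at 4.33. Trpm2 and Trpv2 were at 2.90 and 2.88 CPM per kb with void, with overlapping ranges, and Trpm4 was the lowest of the 9 at 0.73. Exon lengths are unions over all annotated isoforms of GENCODE M21, and a gene whose used isoforms are shorter, as may hold for Trpm3 with 24.4 kb of exon, has its level per kilobase understated.

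**Figure D3:**
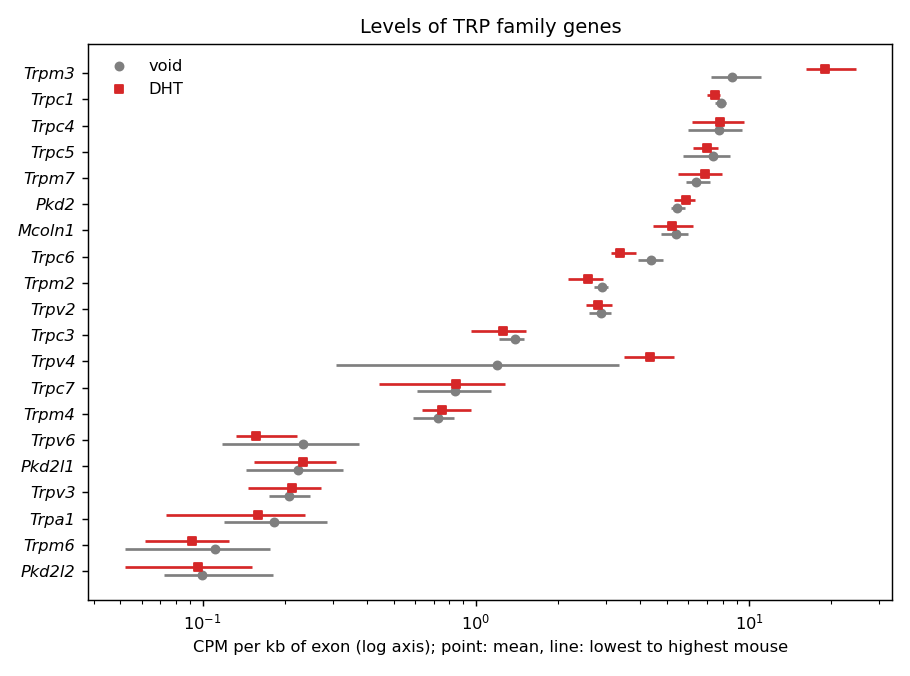
CPM per kilobase of exon for the 20 TRP family genes compared, on a log axis, with points at the group mean and lines from the lowest to the highest mouse. Trpm3 is at the top in both groups, at 8.65 with void and 18.9 with DHT, and Trpv4 has the widest range among the void mice.

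Trpm3 and Trpv4 were then set beside Ttr mouse by mouse. In the void mice, the order from lowest to highest was void 11, 5, 10, 4 and 9 for Ttr, for Trpm3 and for Trpv4 alike. The steps differed in size, since a 21.4-fold range of Ttr went with a 10.8-fold range of Trpv4 and a 1.52-fold range of Trpm3. Void 9 and DHT 2 were both at 1340 CPM of Ttr to 3 digits. At that level of Ttr, Trpv4 was at 13.6 CPM in void 9 and 14.2 in DHT 2, while Trpm3 was at 271 and 435 CPM. The other genes of the choroid plexus list described below were also higher in DHT 2 than in void 9. Aqp1 was at 25.4 CPM in void 9 and 27.8 in DHT 2, Kl at 168 and 241, and Clic6 at 74.4 and 113. A match by Ttr was thus not a match by the other choroid plexus genes. Within the DHT mice the order of Trpm3 (DHT 5, 6, 2, 3 and 1) was not that of Ttr (DHT 3, 2, 5, 6 and 1), although DHT 1 was highest in both.

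**Figure D4:**
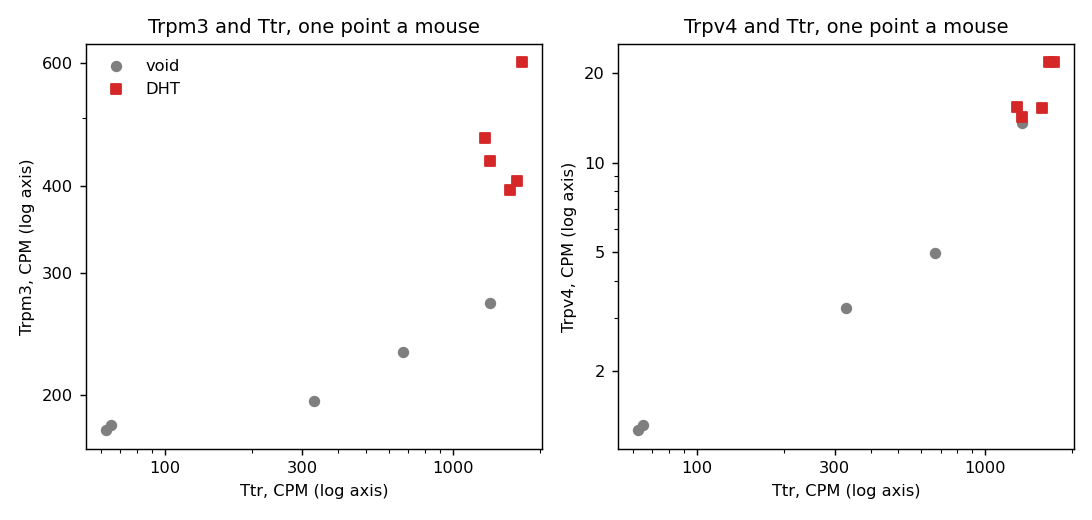
Trpm3 (left) and Trpv4 (right) against Ttr, in CPM on log axes, 1 point per mouse, void mice as grey circles and DHT mice as red squares. For Trpv4 the void mouse with 1340 CPM of Ttr meets the DHT mice, and for Trpm3 the same mouse, at 271 CPM, stays below all of them. In the choroid plexus gene Clic6, not drawn here, this void mouse, at 74.4 CPM, also stayed below all DHT mice.

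After the group means were subtracted, the correlation of log2 CPM with Ttr over the 10 mice was r = 0.97 (rho = 0.93) for Trpv4 and r = 0.70 (rho = 0.71) for Trpm3. Without void 11 and void 5, the mice farthest from the median of Ttr, r was 0.95 for Trpv4 and 0.59 for Trpm3. Leaving out void 9 gave the lowest value for Trpm3, 0.52, and leaving out DHT 1 the highest, 0.86. Among the other 7 genes r with Ttr lay between -0.12, for Trpc1, and 0.44, for Trpc4, and the value of Trpc4 fell to 0.09 without void 11 and void 5. These correlations are a description, since the likeness of Trpm3 and Trpv4 to Ttr was part of how the genes were chosen. In addition, both measures of a mouse come from the same library, and most of the spread in Ttr lies among the void mice.

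The genes whose group-centred levels were most like each of the pair were then listed. For Trpv4, among 14827 genes with at least 1 CPM on average, these were Krt18 (r = 0.992), an epithelial keratin, Tjp3 (0.985), a tight junction protein, Oca2 (0.983), Aqp1 (0.981), a water channel on the choroid plexus list, and Abca4 (0.979). Ttr stood at rank 19 for Trpv4, and all 12 genes of the choroid plexus list were among its first 100. For Trpm3 the most alike were Fam161a (r = 0.973), Sh3d19 (0.971), Pon3 (0.963), Sowahc (0.962) and Tc2n (0.959). None of the 12 choroid plexus genes was among the first 100 for Trpm3, their ranks ran from 109 to 488 with r between 0.70 and 0.87, and Ttr was the last of them. The difference between these rankings was not tested, and likeness to Ttr was part of the choice of both genes.

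The choroid plexus list as a whole lay higher in the DHT mice. All 12 of its genes had a log2 fold change above 0, with a median of 2.15 and a range of 1.63 to 2.69, and their summed level was 118 to 1930 CPM with void and 2220 to 3190 with DHT, without overlap. Called as higher at the adjusted p and fold were 4 of the 12 (2.17% of all genes), Kl, Clic6, Otx2 and Tmem72, with edgeR adjusted p values of 0.0321, 0.0416, 0.0349 and 0.0496, and leaving out 1 mouse ended each of these calls in at least 6 of 10 cases. Without void 9, the void mouse with the highest Ttr, the edgeR adjusted p values of these 4 lay between 0.00203 and 0.00595. With DESeq2, 6 of the 12 had an adjusted p under 0.05. The log2 fold change of Ttr itself was 1.63 (standard error 0.68, edgeR adjusted p = 0.237). Without void 9 that of Ttr was 2.43 (edgeR adjusted p = 0.0405). Clic6, a chloride channel gene of this epithelium, was at 6.71, 8.28, 15.1, 35.2 and 74.4 CPM in void 11, 5, 10, 4 and 9 and at 96.3, 113, 117, 119 and 182 CPM in DHT 5, 2, 3, 6 and 1. It was named after its values were seen, and it separated void 9 from the DHT mice and was highest in DHT 1, as Trpm3 was. Every DHT mouse was above every void mouse for 10 of the 12 genes, against 5.39% of all genes, and Ttr, beside which void 9 and DHT 2 were set, was 1 of the 2 whose groups overlapped. The correlation with the mean standardized level of the 12 genes, after subtraction of group means, was 0.82 for Trpm3 and 0.98 for Trpv4.

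With the level of Ttr as a covariate, the log2 fold change of Trpm3 was 0.82 (standard error 0.15) and that of Trpv4 was 0.55 (standard error 0.21). With the score of all 12 choroid plexus genes they were 0.66 (standard error 0.15) and 0.06 (standard error 0.22). Trpm3 was not called in either fit, and of all genes 0 were higher at the adjusted p and fold. Since the summed level of the choroid plexus genes was itself apart between the groups, these fits rest on few mice of like level. Whether the amount of choroid plexus tissue or its RNA per cell differed cannot be told apart here. The part of either in the differences was not tested beyond these fits.

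Microglial genes also differed between the groups. Their summed level was 464 to 559 CPM with void and 682 to 1060 with DHT, and 7 of 10 were higher at an adjusted p under 0.05 in the edgeR fit (5.22% of all genes), among them Csf1r, the receptor for colony stimulating factor, with a log2 fold change of 0.55. With the microglial score as a covariate the log2 fold change was 0.72 (standard error 0.27) for Trpm3 and 1.39 (standard error 1.11) for Trpv4, and again 0 of all genes were higher at the adjusted p and fold. Without this covariate the standard errors were 0.14 and 0.52. Since the summed microglial level was itself apart between the groups, this fit also rests on few mice of like level. The part of microglia in the differences was not tested beyond it. After group means were subtracted, the correlation with the microglial score was 0.46 for Trpm3, 0.16 for Trpv4, -0.50 for Trpm2 and -0.62 for Trpc4. Trpm2 and Trpv2, the TRP genes best known from microglia and macrophages, overlapped between the groups and had log2 fold changes of -0.18 and -0.04.

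The summed levels of the other cell type lists overlapped between the groups. Of 5 border macrophage genes, such as Mrc1 and F13a1, 0 were called (edgeR, 1 at an unadjusted p under 0.05, 0 with DESeq2) and their sum was 2.14 to 14.5 CPM with void and 4.47 to 11.8 with DHT. Astrocyte genes, led by Slc1a2 and Slc1a3, summed to 6060 to 8480 CPM and 6910 to 8730, and oligodendrocyte genes, such as Mbp, to 3120 to 4300 and 3870 to 4170. Endothelial genes, led by Flt1 and Slco1a4, summed to 236 to 349 CPM with void and 259 to 314 with DHT, mural cell genes, led by Rgs5 and Vtn, to 212 to 301 and 213 to 294, and leptomeningeal fibroblast genes, led by Pdgfra and Dcn, to 165 to 227 and 174 to 238. Neuron genes, led by Map2 and Snap25, summed to 7100 to 7860 CPM with void and 6290 to 7110 with DHT, and inhibitory neuron genes, led by Gad1 and Gad2, to 851 to 911 and 661 to 957. Genes of dentate granule cells (Prox1 and Calb1), CA1 (Mpped1 and Wfs1) and CA3 (Cpne4 and Nectin3) and of the subiculum and lateral septum (Fn1 and Zic1) overlapped in their sums. Zic1 was at 102 CPM in DHT 6 and at 17.3 to 53.3 in the other mice. DHT 6 had the highest Trpc4, 76.7 CPM, close to 75.6 in void 4, and the lowest Trpm7, 62 CPM. DHT 3, with the next highest Zic1 of 53.3 CPM, had the highest Trpm7, 89.8 CPM. These values were picked after they were seen, and a relation to Zic1 was not tested.

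Genes that act on TRP channels were examined in 5 lists. Of 20 genes of Gq and phospholipase C signalling, which opens TRPC channels, 1 was called with edgeR, Htr2c, a serotonin receptor that is abundant in choroid plexus epithelium as well as in neurons. Htr2c was at 54.9, 56.7, 68.6, 95.7 and 98.5 CPM in void 5, 11, 10, 4 and 9 and at 108, 117, 132, 139 and 140 CPM in DHT 5, 6, 2, 1 and 3. The groups did not overlap, and the log2 fold change was 0.76 (standard error 0.16, edgeR adjusted p = 0.0201). The call was lost without void 10, void 11, DHT 1 or DHT 3, and in the fit that held the choroid plexus score the log2 fold change was 0.14 (standard error 0.12). The median log2 fold change of all 20 was -0.03. With DESeq2 Plcg2, a phospholipase of immune cells, was called as well, 0.38 higher on the log2 scale (adjusted p = 0.0219 by DESeq2).

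In the remaining 4 lists 0 genes passed an adjusted p of 0.05 with edgeR and 0 with DESeq2. Among 9 genes of store-operated calcium entry, the pathway that refills calcium stores, Orai1 and Homer3 had the largest log2 fold changes, 0.47 and 0.22, with edgeR adjusted p values of 0.239 and 0.568. Among 8 genes that make or break down the ADP-ribose ligand of TRPM2 and its precursors, Nadk and Cd38 both had 0.08. Among 11 magnesium transporters and regulators, the company of TRPM7, Magt1 had 0.29 and Slc41a1 0.23, with adjusted p values of 0.284 and 0.0951. Among 13 partner proteins of TRP channels, Aqp4, the astrocyte water channel that works with TRPV4 in volume control, had 0.41 (adjusted p = 0.117) and Ano1, a calcium-activated chloride channel, had 0.26 (adjusted p = 0.752). The medians of these 4 lists lay between 0.02 and 0.05. At an unadjusted p under 0.05, 1 gene of store-operated entry, 0 of ligand metabolism, 2 of magnesium transport and 1 of the partners were higher and 0 of any were lower. Aqp4 alone was called when DHT 6 was left out, with a log2 fold change of 0.50 (edgeR adjusted p = 0.0435).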

How the data were processed

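Hippocampal mRNA of 10 female P301S mice was sequenced, 1 library per mouse. The authors trimmed reads with HTStream and aligned them with STAR 2.7.10b, and what they deposited were raw, unscaled counts of reads for each gene. The methods name mm10 and the submitters' processing notes mm39 (GRCm39), so no coordinates are given for counted genes. The counting tool, annotation release, and the handling of strand and of reads matching several genes are not given in the sources used here.

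Groups came from the sample labels. Replicate libraries differed by more than sampling noise in all 20 pairs (chi-square per degree of freedom of at least 10). Symbols came from GENCODE M21 and matched 51948 of 56884 gene rows. The analysis ran in R 4.3.3 on the counts as deposited, with edgeR 4.0.16 (TMM, filterByExpr by group, quasi-likelihood test, Benjamini-Hochberg adjustment over 17622 genes). A call needed an adjusted p under 0.05 with a log2 fold change beyond 1, or, as a second rule, that adjusted p alone. Wherever "called" is used of a gene outside the 9, the adjusted p alone applies, except for the choroid plexus genes, which met both. Correlations used log2 CPM with a prior count of 2, after subtraction of group means. Alternatives were DESeq2 1.42.0, other scalings and filters, covariates and leaving out each mouse. In simulated data with 200 changed genes among 17392, edgeR recovered 100% of those with a log2 fold change of 2 in size and 93% of those with 1, with 5.39% of calls false. The changed genes were drawn at random from genes with higher counts, and each gene was simulated independently. Variation shared by the choroid plexus genes was absent, so these shares do not give the recovery for such genes or for Trpv4.

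The genes and lists were chosen with earlier results of these data known. Named are the 9 genes, other TRP genes that were called or did not overlap, Ttr, the 5 genes most like Trpm3 and Trpv4, called genes (or the 2 with the largest change) of each regulator list and the 2 most abundant genes of each cell type list. Clic6, Otx2, Tmem72 and Mcoln3 were named after their values were seen. Nherf1 had no row matched by symbol, and a few genes that the rule names are not reported here. Depth of 27188854 to 47113661 counts a mouse limits genes with few counts, and p-values set the difference between groups against the spread between these mice.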

Additional observations from a re-analysis of the deposited data

Results flagged for a closer look

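Tmem72, a choroid plexus gene, was at 164 CPM in DHT 1 and at 95.8 CPM in the next highest DHT mouse, a gap of 0.768 of the range of the DHT group. It was the only value to stand apart in this way (Dixon's 95% limit of 0.71 for 5 mice) among 48 groups examined, where chance gives about 2.4, and none of the 9 TRP genes did. DHT 1 also had the highest Trpm3, 602 CPM, of all mice.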

How the results depend on the processing

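Of the 9 TRP genes, 1 (Trpm3) was higher at the adjusted p and fold, and with DESeq2, other scalings or at least 10 counts in every library it was again 1. Without a filter beyond 1 count it was 2, by the adjusted p alone also 2, since Trpv4 joined Trpm3. With Ttr, the choroid plexus score or the microglial score as a covariate both counts were 0, as was the count of all genes (382 higher in the absence of a covariate), and Trpc6 and Htr2c lost their calls, leaving 0 TRP family genes higher, 0 lower and 0 regulator genes, although with the microglial score the log2 fold change of Htr2c was 0.742 (0.764 without it) and its standard error 0.353 (0.164 without it). When single mice were left out, the genes of the 9 called higher at adjusted p and fold numbered 0 (without DHT 1) to 2 (without void 9), and at the adjusted p 1 to 2. TRP family genes called higher numbered 2 with DESeq2 and 3 without a filter, Mcoln3 being added, and 1 to 2 with a mouse left out. Those called lower numbered 0 to 1. Regulator genes called numbered 2 with DESeq2 and 2 with library size alone, Plcg2 joining Htr2c, and 0 to 2 with a mouse left out (Plcg2 was added without DHT 2 and Aqp4 without DHT 6). All genes lower at the adjusted p numbered 46, 224 with DESeq2 and 5 (without void 11) to 77 (without DHT 2) with a mouse left out. All genes higher at p and fold numbered 175 (without DHT 1) to 513 (without void 9). The r of Trpm3 with Ttr was 0.515 to 0.863 and that of Trpv4 0.957 to 0.978 with a mouse left out.

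Some log2 fold changes turned in direction. Trpc4 was at -0.00886 with DESeq2, -0.00887 with its size factors in edgeR, -0.16 with Ttr and -0.19 with the choroid plexus score. With Ttr as a covariate Homer3 was at -0.18 and Nadk at -0.039. With the choroid plexus score, Homer3 was at -0.24, Nadk at -0.076, Magt1 at -0.095 and Ttr, a part of that score, at -0.65. With the microglial score, Trpm2 was at 0.027, Trpv2 at 0.046, Trpc1 at 0.026, Homer3 at -0.084, Nadk at -0.01 and Cd38 at -0.29. With a mouse left out, Trpm4 ran from -0.0509 to 0.104, Trpc4 from -0.0605 to 0.102, Cd38 from -0.0496 to 0.174 and Ano1 from -0.0869 to 0.419. Ttr has no value with itself as a covariate. The causes were not tested. No paired analysis was made, since the sample labels do not pair void with DHT mice.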
